A study of Rattus norvegicus with 82 samples.

Results

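Aortic banded rats in the failing stage (AOB-F) were examined by the right ventricle (RV) against the left ventricle (LV) of the same heart. The libraries were chosen by the AOB-F token in their labels and paired by the animal number, which gave 14 of the 82 libraries of the series, 7 per ventricle, from 7 of the 41 rats. A titanium clip that did not constrict at placement was put around the aorta, so that the LV came to work against pressure, and the rats were examined 26 weeks later at 31 weeks of age by the labels. The labels and the methods of the study differ on the ages at surgery and at harvest. All rats were F1 offspring of Wistar Kyoto females and Lewis males. Of the AOB-F animals, replicates 1 to 4 were male and replicates 5 to 7 female. Other groups were used for comparison only: 9 sham-operated animals of the same labelled age (Sham-F), 6 animals with a clip on the pulmonary artery (PAB-F, 28 weeks old, 22 weeks after surgery), which loads the RV, 6 aortic banded animals in the compensated, hypertrophic stage (AOB-H, 11 weeks old, 7 weeks after surgery) and 7 sham-operated animals of the age of AOB-H (Sham-H). Each library held RNA of cardiomyocytes, which were freed with collagenase from a perfused heart, separated by ventricle and enriched by centrifugation, and ribosomal RNA was depleted. The AOB-F libraries held 11482907 to 18282203 counts on genes (median 13244759).

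Under pressure, ventricular cardiomyocytes are known to switch on fetal genes, such as those of the natriuretic peptides, and genes of stretch sensing, matrix and paracrine signals, while genes of contraction and fuel use may fall. The ventricles also differ from birth, since they arise from different heart fields and are marked by their own transcription factors. In aortic banding the LV faces the load, whereas the RV of the same heart shares its blood and hormones but pumps into the lungs. RV minus LV within an animal therefore holds the chamber difference and the difference in load together, and the comparison with Sham-F, in which neither ventricle is loaded, was used to look at the part that depends on banding. The study also reported increased lung weight in AOB-F, and whether the RV of AOB-F was free of load was not tested here.

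Some facts on the libraries touch the results. The Y-linked gene *Eif2s3y*, a translation factor of males, had 321 counts (23.2 CPM, counts scaled by the library total) in the RV library of replicate 6, a female by its label, whereas the other 39 female libraries of the series had at most 1 count. In the RV library of replicate 1, a male, it had 30.7 CPM, against 54 to 70.4 CPM in the other male RV libraries of AOB-F and at least 50.5 CPM in all 20 other male RV libraries. *Ddx3*, likewise read mainly in males, had 394 counts in the RV of replicate 6, against at most 2 in other female libraries. In the RV of replicate 1 it had 56.3 CPM, against 71.1 to 99.4 CPM in the other male RV libraries of AOB-F. The male RV library of PAB-F replicate 4 held 51.1 CPM. The X-linked *Eif2s3x* had 193 CPM in the RV of replicate 1, against 118 to 150 CPM in the other male RV libraries of AOB-F. Whether the RV libraries of replicates 1 and 6 hold RNA of more than 1 animal was not tested further. The counts at an adjusted p under 0.05 that lead the paragraphs below are also given without the pairs of replicates 1 and 6. The LV library of replicate 5 also stood apart, since its Spearman correlation across genes was as high with the RV libraries (median 0.962) as with the other LV libraries (median 0.962), whereas for the other LV libraries the median with RV was 0.877 to 0.929 and with LV 0.946 to 0.970.

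Between RV and LV of AOB-F, 8435 of 11954 genes tested (70.6%) had an adjusted p under 0.05 by the quasi-likelihood test of edgeR with the animal as a block, 4133 (34.6%) higher and 4302 (36%) lower in the RV. A difference of more than 2-fold in either direction was reached by 3312 of these genes, 1566 of them higher in the RV. For 3624 genes (30.3%) the RV and LV libraries did not overlap, with RV above LV for 2076 (17.4%) and below it for 1548 (12.9%). By the criteria of the study (more than 2-fold in either direction, p up to 0.01 without adjustment, and more than 50 normalized counts on average in either ventricle), 2651 genes (22.2%) differed, 1331 higher and 1320 lower, and 2790 did without the pairs of replicates 1 and 6. The study used these thresholds for banded against sham groups, with the mean taken in the disease group and shrunken fold changes of DESeq2. These numbers are therefore not comparable with the numbers of genes it reported. Normalized counts are raw counts scaled to a common library size. Without the pairs of replicates 1 and 6, the adjusted p was under 0.05 for 7881 genes, 7738 of which were among the 8435, and the sign of 0 of the 8435 genes changed. With such a large share of the genes called, a count of members of a list is read against 34.6% and 36%. By the labels and the methods of the study, a library came from 1 ventricle of 1 animal, with the doubt given above for the RV libraries of replicates 1 and 6. The p values rest on the spread of RV minus LV between animals of the same condition, pooled over all 41 animals of the series.

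Among the genes with the same direction in 7 of 7 animals, *Nppa*, the gene of atrial natriuretic peptide, was the one most reduced in the RV. It had 4825 to 32334 (median 20531) normalized counts in the LV and 1026 to 4589 (median 1680.0) in the RV, without overlap. On the log2 scale RV minus LV was -3.20 (SE 0.45, adjusted p = 5.8e-08), where SE is the standard error. The LV library of replicate 5 held the lowest LV value, at 4825. The gene of the apelin receptor, *Aplnr*, which is strongest in endothelium, followed, with 559 to 8197 (median 4059) normalized counts in the LV and 85.8 to 679 (median 492) in the RV and RV minus LV of -3.07 (SE 0.21, adjusted p = 9.77e-15). The lowest LV values of *Aplnr*, 1107 and 559, came from the females of replicates 6 and 7. The matrix gene *Tnc* (tenascin C) also overlapped, with 26.2 to 1082 (median 64.3) normalized counts in the LV and 3.4 to 159.8 (median 11.9) in the RV, and differed by -2.95 (SE 0.35, adjusted p = 2.21e-09). Its 2 highest values in either ventricle belonged to replicates 6 and 7. The other 9 genes named by the same rule had log2 fold changes of -3.07 to -2.87. They were *Fam212a* (-3.07), *Tmem255b* (-3.04), the Iroquois transcription factor *Irx2* (-3.00), the chitinase *Chit1* (-2.94), *Ly6c* (-2.93), the cannabinoid receptor *Cnr2* (-2.92), *Sez6l2* (-2.91), *Lrfn3* (-2.87) and the glycosyltransferase of Notch receptors *Mfng* (-2.87). For 8 of these 9 genes, which were picked for their large difference, the libraries did not overlap, against 12.9% with RV below over all genes tested. The exception was *Sez6l2*, with 25.4 and 26.4 normalized counts in the LV of replicates 6 and 7.

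In the other direction, *Angpt1*, the gene of angiopoietin 1, a ligand of the endothelial receptor Tek, was highest in the RV relative to the LV. *Angpt1* had 63.1 to 444 (median 144) normalized counts in the LV and 896 to 4239 (median 1683) in the RV, without overlap, and RV minus LV of 3.44 (SE 0.26, adjusted p = 3.36e-14). In either ventricle its highest values came from replicates 6 and 7. The protocadherin gene *Pcdh11x* had 12.1 to 32 (median 19.2) normalized counts in the LV and 124 to 284 (median 206) in the RV and differed by 3.32 (SE 0.32, adjusted p = 1.26e-11). Next came the calcium sensor *Vsnl1* (3.06), the taste receptor *Tas2r120* (2.99), the GABA receptor subunit *Gabrb2* (2.90), the ephrin receptor *Epha3* (2.72), *Mum1l1* (2.70), the interleukin *Il25* (2.54), *Rps6* (2.51), *Emc2* (2.50), *Dcdc5* (2.48) and *Lrrc7* (2.47). *Il25* and *Dcdc5* overlapped between the ventricles and the other 10 of these 12 genes did not. These 12 were also picked for their large difference, and over all genes tested 17.4% lay without overlap with RV above. For *Dcdc5* the LV of replicate 5 held 244 normalized counts, against at most 76.3 in the other LV libraries. The values of *Rps6* are uncertain, since ribosomal protein genes have many near-identical copies that share reads. Reads of overlapping genes on opposite strands cannot be told apart either, because the strand setting of the counting is not given in the sources used here.

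**Figure D1:**
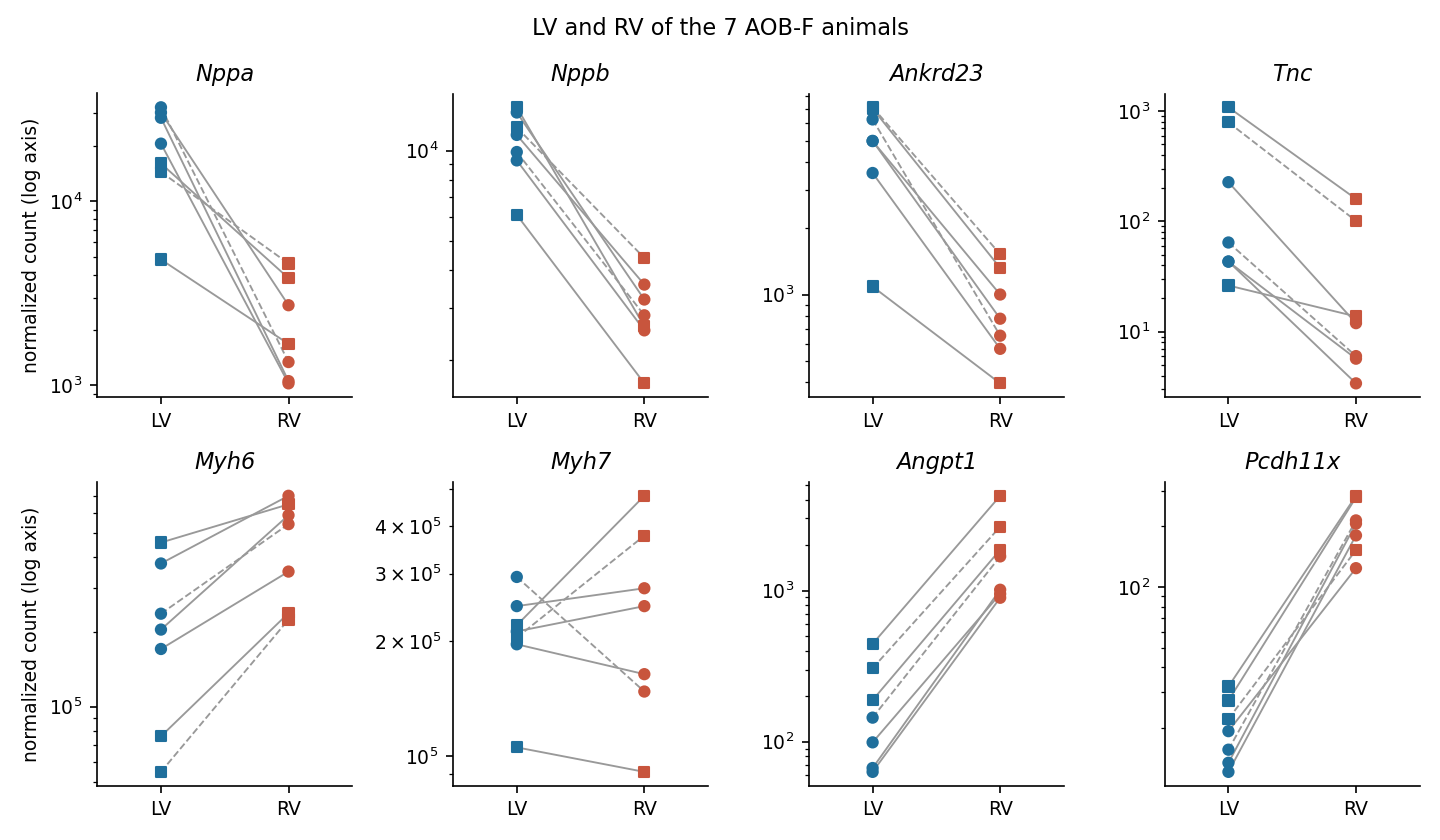
Normalized counts (log axis) of 8 genes in LV (blue) and RV (red) of the 7 AOB-F animals, with a line per animal, circles for males, squares for females and broken lines for replicates 1 and 6. *Nppa*, *Nppb*, *Ankrd23* and *Tnc* fall along 7 of 7 lines from LV to RV, *Myh6*, *Angpt1* and *Pcdh11x* rise along 7 of 7, and the lines of *Myh7* run in both directions, with 4 of 7 rising.

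Sequence upstream of the start is shown for genes at both ends of the range: *Nppa* and its neighbour *Nppb*, which lie on the same chromosome and are both lower in the RV, *Irx2*, also lower, and *Vsnl1*, higher in the RV. The 250 bases before the annotated start are taken from RefSeq, build GRCr8, and are given 5′ to 3′ in the direction of the gene, at chr5:163711934-163712183 (strand +), chr5:163699758-163700007 (strand +), chr1:32494931-32495180 (strand -) and chr6:39878557-39878806 (strand -). The counts themselves were made on another build. Capitals mark exact matches, on either strand, to AGATAA (bound by GATA factors), CATTCC (the MCAT element, bound by TEAD factors) or TATAAA (the TATA box), which do not overlap here.
Nppa: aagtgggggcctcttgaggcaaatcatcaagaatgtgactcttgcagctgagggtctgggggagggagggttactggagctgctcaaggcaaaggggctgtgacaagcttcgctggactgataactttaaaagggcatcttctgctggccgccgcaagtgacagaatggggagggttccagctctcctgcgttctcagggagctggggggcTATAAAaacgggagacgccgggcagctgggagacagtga
Nppb: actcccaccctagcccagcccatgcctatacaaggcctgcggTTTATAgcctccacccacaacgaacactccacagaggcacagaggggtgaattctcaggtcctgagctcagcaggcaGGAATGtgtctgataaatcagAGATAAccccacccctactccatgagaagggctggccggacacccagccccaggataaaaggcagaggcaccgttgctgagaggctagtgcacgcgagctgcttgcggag
Irx2: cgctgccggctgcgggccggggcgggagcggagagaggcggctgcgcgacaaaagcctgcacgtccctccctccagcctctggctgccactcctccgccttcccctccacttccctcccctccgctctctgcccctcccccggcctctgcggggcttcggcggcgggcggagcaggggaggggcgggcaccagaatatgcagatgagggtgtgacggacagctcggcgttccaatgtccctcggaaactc
Vsnl1: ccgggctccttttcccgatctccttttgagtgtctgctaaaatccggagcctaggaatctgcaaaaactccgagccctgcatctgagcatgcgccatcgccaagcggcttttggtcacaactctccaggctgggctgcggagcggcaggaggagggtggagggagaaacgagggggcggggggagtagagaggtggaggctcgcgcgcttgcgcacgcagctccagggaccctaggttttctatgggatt
*Nppa* held TATAAA from base -39 to -34. In *Nppb* there was AGATAA from -110 to -105, CATTCC on the other strand from -131 to -126 and TATAAA on the other strand from -208 to -203. The upstream stretches of *Irx2* and *Vsnl1* held 0 matches. Over the 33469 stretches of the same length in the table, AGATAA was found in 10.3%, CATTCC in 12.1% and TATAAA in 12.9%. A match describes the letters and no binding was measured. No entry was found for *Angpt1* or *Crym*.

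The transcription factors that pattern the heart chambers moved in both directions. Of 29 tested on the list of chamber and core cardiac factors, 10 were higher and 15 lower in the RV, and 4 did not pass. The share higher was near the 34.6% over all genes tested, and the share lower was above the 36% over all genes. The median log2 fold change was -0.29, against -0.03 over all genes tested. Without pairs 1 and 6, 9 were higher and 14 lower. *Irx1* and *Irx2* of the Iroquois family had the largest differences, with 27.2 to 108 (median 53.7) normalized counts in the LV and 4.25 to 13.7 (median 7.96) in the RV for *Irx1*, and 43.3 to 146 (median 92.3) normalized counts in the LV and 1.19 to 18.8 (median 12.9) in the RV for *Irx2*. Both sets of libraries were without overlap, and *Irx1* differed by -2.79 (SE 0.39, adjusted p = 5.56e-08). The family did not move as one, since *Irx4*, known as a ventricular factor, was higher in the RV by 0.56 (SE 0.12, adjusted p = 0.000119), and *Irx3* (0.34) and *Irx5* (0.30) did not pass. The T-box repressors *Tbx2* (-1.73) and *Tbx3* (-1.54), known from the conduction system, the Notch target *Hey1* (-1.62) and the nuclear receptors *Nr2f1* (-1.33) and *Nr2f2* (-1.50), known from atria and vessels, were lower in the RV. *Hey2*, the Notch target of compact ventricular muscle, was higher, with 109.7 to 265 (median 182) normalized counts in the LV and 334 to 363 (median 353) in the RV, without overlap, and RV minus LV of 1.03 (SE 0.17, adjusted p = 1.87e-06). So were *Mef2a* (1.40), *Zfpm2* (1.01), *Myocd* (0.70), *Gata6* (0.57), *Tbx20* (0.42), *Tead1* (0.30) and *Gata5* (0.30), factors and cofactors of heart muscle genes. The core factors *Nkx2-5* (-0.58), *Gata4* (-0.29), *Srf* (-0.38) and *Mef2d* (-0.21) and the RV-associated *Hand2* (-0.34) were lower by less than 2-fold. Also lower were *Tbx1* (-1.41), at no more than 16.7 normalized counts in any AOB-F library, and the forkhead genes *Foxc1* (-1.07) and *Foxc2* (-1.19). *Tbx5* (0.24) and *Tbx18* (-0.39) did not pass. The calls of *Gata5* and *Mef2d* were lost without pairs 1 and 6, where *Irx5* passed, and without several single animals. Those of *Hand2* (adjusted p = 0.0777), *Gata4* (0.0555) and *Tbx1* (0.0549) were lost without the filter on low counts, that of *Hand2* also with the length correction (0.125) and without replicates 2 (0.0972) or 4 (0.115), and that of *Tbx1* also without replicates 2, 3, 5 or 6 (adjusted p = 0.0722 to 0.117). *Irx6*, *Hand1* and *Isl1* did not pass the filter on low counts.

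The load and fetal program was lower in the RV more often than higher. Its list joins genes known to respond to stretch and pressure with genes that the study reported as changed by banding in these libraries. *Penk*, *Tceal7* and *Tgfa* are among the latter. Of 28 genes tested, 15 were lower and 5 higher in the RV, 8 did not pass, and the median was -0.68. Without pairs 1 and 6, 14 were lower and 5 higher. *Nppb*, which encodes the B-type natriuretic peptide, had 6107 to 13945 (median 11281) normalized counts in the LV and 1676 to 4387 (median 2826) in the RV, without overlap, and RV minus LV of -1.88 (SE 0.21, adjusted p = 4.27e-10). The titin-binding ankyrin repeat gene *Ankrd23* ranged over 1089 to 7106 (median 5001) normalized counts in the LV and 395 to 1528 (median 778) in the RV, and its only LV library within reach of the RV was that of replicate 5, at 1089. Its log2 fold change was -2.43 (SE 0.25, adjusted p = 1.12e-10). Skeletal actin, *Acta1*, a classic fetal gene, differed by -1.39 (SE 0.27, adjusted p = 1.67e-05), with LV values of 10302 and 9765 in replicates 6 and 7 that fell within the RV range of 6079 to 11574. Also lower in the RV were the stress cytokine *Gdf15* (-2.25), the opioid precursor *Penk* (-2.34), the matrix protein of cartilage *Cilp* (-2.83), the growth factors *Tgfa* (-2.41), *Tgfb2* (-1.12), *Tgfb3* (-0.93) and *Ctgf* (-0.94), and the protease inhibitor *Timp1* (-0.99). The libraries of *Gdf15*, *Penk*, *Ctgf* and *Tgfb3* did not overlap. *Timp1* was highest in the LV of the females of replicates 6 and 7, which held 690 and 543 normalized counts, against at most 109 in the other LV libraries. It did not pass without pairs 1 and 6 (adjusted p = 0.11). The heparan sulfotransferase *Hs3st2* had 1.88 to 99 (median 50) normalized counts in the LV and 0.981 to 9.9 (median 2.39) in the RV. Its LV values split into at least 50 in the males and at most 4.91 in the females, and it was lower in the RV in 5 of 7 animals (log2 fold change -2.92, SE 0.65, adjusted p = 0.000148). The calcineurin inhibitor *Rcan1* (-0.67) was lower as well.

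Of the load genes that were higher in the RV, the sarcomere gene *Myh6*, the fast myosin heavy chain of the adult rodent ventricle, had 54736 to 456039 (median 203952) normalized counts in the LV and 223779 to 702541 (median 540627) in the RV, and RV minus LV of 1.26 (SE 0.14, adjusted p = 7.62e-10). Its lowest values in either ventricle were those of replicates 6 and 7. The slow myosin *Myh7*, known to rise with load, did not pass, at 0.13 (SE 0.17, adjusted p = 0.49), with 105591 to 294072 (median 211990.0) normalized counts in the LV and 91137 to 478932 (median 246765) in the RV. In replicate 1 it was 294072 in the LV and 147696 in the RV, whereas in replicate 7 it was 220027 and 478932. The Xin repeat gene *Xirp2* (1.63), the stretch-sensing *Ankrd1* (0.50) and *Fhl2* (0.72) and the atrial light chain *Myl7* (1.73) were higher in the RV. The call of *Ankrd1* was lost without replicate 3 (adjusted p = 0.058) and without the animal as a block (0.0753). *Fhl1* (0.09), *Csrp3* (0.10), *Tceal7* (0.27), *Myl4* (-0.15), *Edn1* (-0.32), *Npr3* (-0.39) and *Ankrd2* (-0.69) did not pass. *Fhl1* shows animals rather than chambers, with 18819.9 and 23049 normalized counts in the LV and 17350.1 and 21464 in the RV of replicates 6 and 7, and at most 8522 in the other 5 animals.

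Genes of contraction and of calcium handling were largely higher in the RV. Of 28 sarcomere genes tested, 20 were higher and 2 lower (median log2 0.74), and 19 and 2 without pairs 1 and 6. The thin filament anchor *Nebl* had 877 to 2149.6 (median 1694) normalized counts in the LV and 5263 to 12039.6 (median 7104) in the RV, without overlap, and differed by 2.31 (SE 0.21, adjusted p = 6.4e-12). The actin-binding *Nexn* (2.09), the muscle methyltransferase *Smyd1* (0.82) and the troponin *Tnnt2* (0.97) were also higher. Lower in the RV were *Acta1* (-1.39) and the ventricular light chain *Myl3* (-0.51). Of 27 calcium genes, 17 were higher and 6 lower (median 0.64), and the same numbers were found without pairs 1 and 6. *Pln*, the gene of phospholamban, which restrains the calcium pump, had 24572 to 52417 (median 27689.5) normalized counts in the LV and 64698 to 82179 (median 73276) in the RV, without overlap, and RV minus LV of 1.32 (SE 0.13, adjusted p = 2.05e-11). The pump *Atp2a2* (1.04), the release channel *Ryr2* (1.08), its partner *Trdn* (1.96), and the channel subunits *Cacna2d1* (1.57) and *Cacnb2* (1.29) moved the same way. For these genes the libraries did not overlap. Among 32 ion channels and connexins, 13 were higher and 7 lower (median 0.20), and 11 and 7 without pairs 1 and 6. The potassium channel genes *Kcnk2* (1.75), *Kcnj3* (1.40) and *Kcnj2* (1.12) were higher, and *Kcnj8* (-1.34), known from mural cells, the T-type calcium channel *Cacna1g* (-0.79) and the connexin *Gja5* (-1.19), known from arteries and the conduction system, were lower.

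Fuel genes followed. Of 36 genes of fatty acid oxidation, 26 were higher and 3 lower in the RV (median 0.64), and 24 and 3 without pairs 1 and 6. The coactivator of mitochondrial biogenesis *Ppargc1a* had 390.2 to 1124 (median 538) normalized counts in the LV and 1781 to 2825 (median 2057) in the RV, without overlap, and RV minus LV of 1.85 (SE 0.18, adjusted p = 1.58e-11). *Pdk4*, the kinase that closes pyruvate dehydrogenase, differed by 1.56 (SE 0.16, adjusted p = 3.99e-11), and *Decr1* (1.51) and *Eci2* (1.31), enzymes for unsaturated fatty acids, by less. The 3 genes lower in the RV were *Esrra* (-0.49), *Ucp2* (-0.47) and *Acads* (-0.29). In the tricarboxylic acid cycle 15 of 18 genes were higher and 0 lower (median 0.59), 13 and 0 without these pairs, led by the succinyl-CoA ligase subunit *Sucla2*, which had 1110.2 to 2941 (median 1305) normalized counts in the LV and 6372 to 9209.6 (median 7729.5) in the RV, without overlap, and *Fh* (1.18), *Mdh1* (0.98) and *Sdhd* (0.74) followed. Glycolysis and pyruvate use were mixed, with 13 of 29 genes higher and 5 lower (median 0.13), and 11 and 5 without these pairs. There the pyruvate dehydrogenase subunits *Pdha1* (1.99) and *Pdhb* (1.08) and the muscle enolase *Eno3* (1.15) were higher, whereas the basal glucose transporter *Slc2a1*, with 547 to 1816 (median 829) normalized counts in the LV and 398 to 672 (median 549) in the RV, differed by -0.85 (SE 0.12, adjusted p = 7.49e-08). The subunits of oxidative phosphorylation split, with 27 of 74 higher, 18 lower and 29 not passing (median 0.10), and 25 and 15 without these pairs, and the subunits of complex I *Ndufb3* (1.77), *Ndufs4* (1.57) and *Ndufa5* (1.39) were among those higher. The share of these subunits that was higher was near the 34.6% over all genes tested.

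The signaling list and the chaperones showed no common direction, whereas immediate early genes were mostly lower in the RV. On the list of adrenergic, endothelin and angiotensin signaling, 11 of 37 genes tested were higher and 11 lower in the RV (median -0.06), and 8 and 9 without pairs 1 and 6. Neither share with all pairs was above that over all genes tested, 34.6% higher and 36% lower. The converting enzyme gene *Ace*, strongest in endothelium, had 394 to 1201 (median 791) normalized counts in the LV and 181 to 284 (median 228) in the RV, without overlap, and differed by -1.83 (SE 0.15, adjusted p = 1.28e-13). The receptor of atrial natriuretic peptide *Npr1* (-1.66) and the phosphodiesterase *Pde2a* (-1.14) were lower, whereas the phosphodiesterase *Pde4d* (1.06) was higher. Of 27 immediate early genes, which respond within minutes to stress and to cell isolation, 18 were lower and 1 higher in the RV (median -0.43), and 17 and 1 without pairs 1 and 6. *Dusp1*, a phosphatase of stress kinases, had 6414 to 20347 (median 14757) normalized counts in the LV and 4180.1 to 7063 (median 4959) in the RV, and differed by -1.25 (SE 0.14, adjusted p = 5.68e-10), and *Klf2* (-1.68), known from endothelium, *Jund* (-1.21) and *Ier5* (-1.07) were lower too, whereas *Nr4a3* (0.74) was the gene that was higher. Chaperones split, with 12 of 25 higher and 9 lower (median 0.29), the same numbers as without these pairs. The mitochondrial chaperone *Hspa9* (1.51) and *Dnajb4* (1.37) were higher, and the stress-induced *Hspa1a* (-1.28) and *Hspb1* (-1.18) were lower. *Hspb1* was highest in the LV of replicates 6 and 7, at 20387 and 24459.5 normalized counts, against at most 9270.3 in the other LV libraries.

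RNA and protein turnover genes are described next. Of 29 splicing regulators tested, 26 were higher and 1 lower in the RV (median 0.77), and 26 and 1 without pairs 1 and 6. Without overlap, 20 of the 29 lay with RV above, against 17.4% of all genes tested. The kinases of splicing factors *Clk1* (1.65) and *Clk4* (1.76) and the muscle factor *Rbfox1* (1.41) were among the splicing regulators that were higher. The gene that was lower was *Ptbp1*, a repressor of muscle and neuronal exons, with 1064 to 2329 (median 1708) normalized counts in the LV and 539 to 660.4 (median 629) in the RV, without overlap, and RV minus LV of -1.44 (SE 0.15, adjusted p = 1.96e-10). Of 81 cytosolic ribosomal proteins, 37 were lower and 18 higher (median -0.31), and of 63 mitochondrial ones 35 were higher and 11 lower (median 0.38). Without the pairs, these numbers were 32 and 17, and 35 and 9. In the proteasome, 19 of 37 subunits were higher and 8 lower (median 0.33), and 19 and 7 without the pairs. The immunoproteasome subunits *Psmb9* (-1.94) and *Psmb8* (-1.90) were lower, whereas *Psma4* (1.61) and *Psmc6* (1.75) were higher. Of the ribosomal genes, *Rplp1* (-1.27) was lower and *Mrpl42* (2.15) higher. *Psmb9* had 142 to 407 (median 281) normalized counts in the LV and 54.5 to 87.6 (median 64.8) in the RV, without overlap.

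Matrix genes were mostly lower in the RV, and inflammatory genes were so less often. Of 30 matricellular and remodeling genes, 24 were lower and 0 higher (median -1.11), of 21 collagens 13 were lower and 2 higher (median -1.10), and of 26 genes of chemokines and inflammation 14 were lower and 1 higher (median -0.54). The 2 collagens that were higher were *Col11a2* (0.80) and *Col4a3* (0.58). Without pairs 1 and 6, 22 of 30, 13 of 21 and 10 of 25 members, respectively, were lower, against 4013 of 11998 over all genes tested. The share of the inflammatory list was then near that over all genes. The cross-linking enzyme *Loxl2* had 209.8 to 361 (median 299) normalized counts in the LV and 71 to 89.2 (median 80.2) in the RV, without overlap, and differed by -1.76 (SE 0.17, adjusted p = 3.18e-11). Others were *Tgfb1* (-2.06), *Timp4* (-2.05), *Loxl1* (-2.36) and *Thbs4* (-2.38), the fibrillar collagens *Col1a1* (-2.10) and *Col3a1* (-1.53), and the basement membrane collagens *Col4a1* (-1.67), *Col15a1* (-2.02) and *Col18a1* (-1.34). Of the inflammatory genes, the chemokine *Cxcl12* (-1.59), *Cxcl16* (-1.84) and the leukocyte integrin *Itgb2* (-1.73) were lower, with *Itgb2* at 384 and 788 normalized counts in the LV of replicates 6 and 7 and at most 176 in the other LV libraries. The adhesion receptor *Vcam1* (1.61) was higher in the RV.

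Markers of other cell types moved with these genes. Of 7 endothelial markers tested, 7 were lower in the RV (median -1.81), of 9 fibroblast markers 7 (-1.08), of 8 macrophage markers 7 (-0.99) and of 7 mural markers 4 (-0.86), and 0 of these were higher. Without pairs 1 and 6 the numbers lower were 7, 6, 6 and 4. The endothelial list took 0.195% to 0.412% of the counts in the LV and 0.0774% to 0.109% in the RV, the fibroblast list 0.0633% to 0.132% of the counts in the LV and 0.0296% to 0.0424% in the RV, the mural list 0.0606% to 0.109% of the counts in the LV and 0.0428% to 0.0472% in the RV and the macrophage list 0.00934% to 0.0348% of the counts in the LV and 0.00672% to 0.0163% in the RV. Among single markers, *Tie1* had 2056 to 8882 (median 5738) normalized counts in the LV and 548 to 1245 (median 1092) in the RV, and *Col1a1* had 1655 to 4905 (median 3374) normalized counts in the LV and 457 to 954 (median 753) in the RV. The ventricular cardiomyocyte list took 6.07% to 10.6% of the counts in the LV and 10.5% to 13% in the RV and was higher in the RV in 7 of 7 animals, with 5 of 9 genes higher and 1 lower. This list includes *Myh6*, *Ryr2*, *Atp2a2* and *Tnnt2*, given above as higher in the RV, and the median log2 over its 9 genes was 0.27. Its share therefore cannot tell the purity of the cells from a change of these genes. In Sham-F these shares differed between the ventricles in the same direction. The median log2 ratio of RV to LV shares was -1.76 in AOB-F and -1.79 in Sham-F for endothelial cells. It was -1.43 and -1.29 for fibroblasts, -1.21 and -1.21 for mural cells and -1.28 and -0.93 for macrophages. For ventricular cardiomyocytes it was 0.38 and 0.43. In bulk RNA, fewer cells of a type and less RNA per cell cannot be told apart, and the part of these cells in the results on matrix, endothelial and inflammatory genes was not tested. The atrial list held 4 tested genes, of which 1 was higher and 1 lower. Of the conduction list 2 of 4 genes were lower, of the Schwann cell list 2 of 4 were lower and 1 higher, of the red blood cell list 2 of 3 were lower and 1 higher, of the mesothelial list 1 of 2 was lower, and the lymphocyte marker tested, *Cd2* (-1.68), was lower. The whole lymphocyte list took at most 0.000227% of the counts in an AOB-F library. With only AOB-F in the fit, 0 lymphocyte markers passed the filter on low counts. No neutrophil or adipocyte marker passed the filter, with at most 66 counts of a neutrophil marker and 11 of an adipocyte marker in an AOB-F library.

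**Figure D2:**
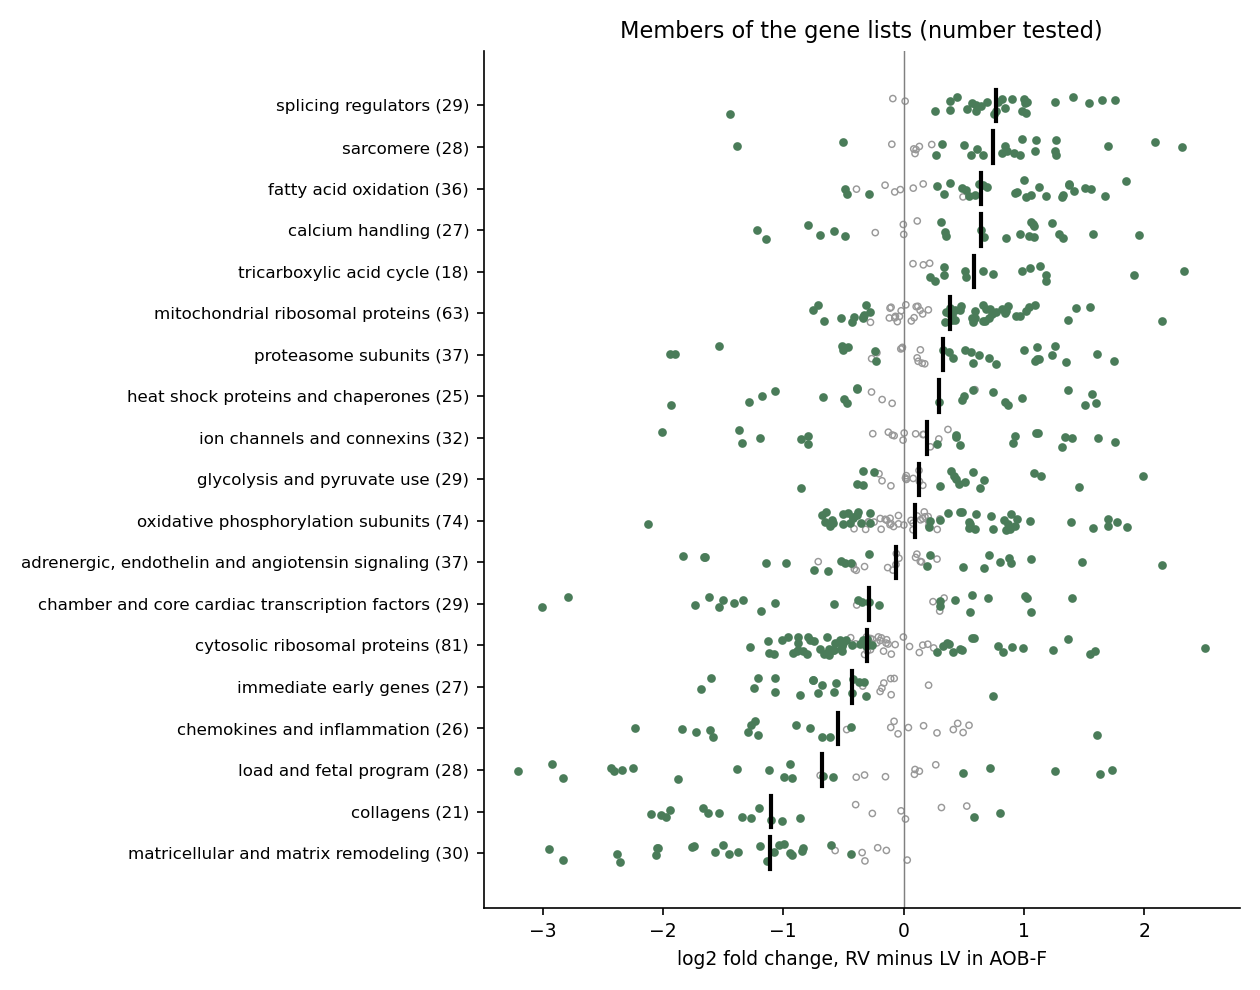
Log2 fold change, RV minus LV in AOB-F, of the tested members of the gene lists, with the number tested in parentheses. Filled points have an adjusted p under 0.05, open points do not, and the black bars are the medians, which run from -1.11 for matrix remodeling to 0.77 for splicing regulators.

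**Figure D3:**
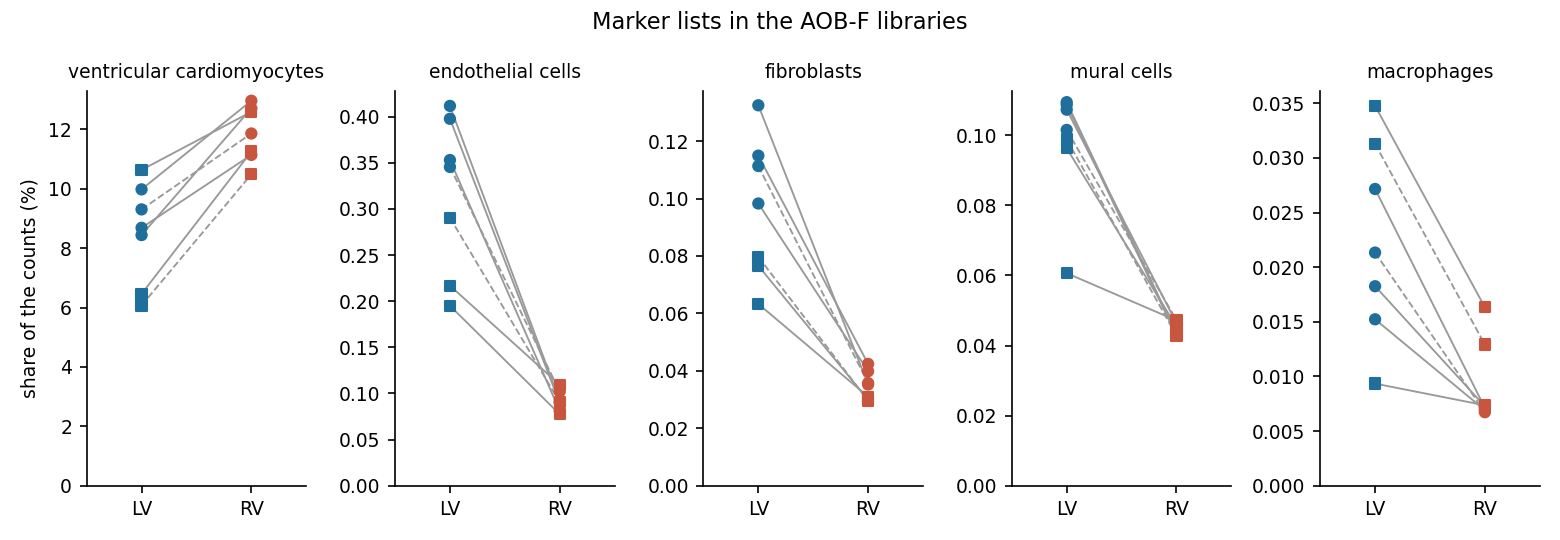
Share of the counts (%) taken by the marker lists of 5 cell types in LV (blue) and RV (red), with a line per AOB-F animal, circles for males, squares for females and broken lines for replicates 1 and 6. The cardiomyocyte share is higher in the RV in 7 of 7 animals and each of the other shares is lower.

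To see which of these differences go with the load on the LV, the RV minus LV difference in AOB-F was tested against that in Sham-F within 1 fit. Among the 11954 genes, 1 (0.00837%) differed at an adjusted p under 0.05, and 1693 (14.2%) at an unadjusted p under 0.05. That gene was *Crym*, which encodes crystallin mu, a cytosolic binder of thyroid hormone. *Crym* had 217 to 283 (median 260.2) normalized counts in the LV and 278 to 350.3 (median 324) in the RV of AOB-F and was higher in the RV in 7 of 7 animals, by 0.27 (SE 0.10, adjusted p = 0.0197), whereas in Sham-F the log2 fold change was -0.53, a difference of 0.80 (SE 0.14, adjusted p = 0.0124). The difference was 0.77 to 0.80 without replicate 2 (adjusted p = 0.0647), without replicate 6 (0.0606), without pairs 1 and 6 (0.158), without the animal as a block (0.218) and with only the conditions compared (0.0814), so that its size was kept and its call was not. RV minus LV of *Crym* within AOB-F also lost its call, at 0.25 without replicate 6 (adjusted p = 0.0525), 0.26 without pairs 1 and 6 (0.0704) and 0.27 without the block (0.0726). DESeq2 called 35 genes against Sham-F. In simulated counts, 127 of 200 genes with a 2-fold difference between AOB-F and Sham-F were recovered. These counts had the same spread for every gene and no other difference between the ventricles. They therefore do not give the share of such genes that would be found in the real counts. RV minus LV had an adjusted p under 0.05 for 9231 genes (77.2%) in Sham-F, against 8435 in AOB-F, and 7718 genes were called with the same sign in both, which is 91.5% of the AOB-F and 83.6% of the Sham-F genes, and 7 with the opposite sign. *Nppa*, the gene with the largest drop above, differed by -3.89 in Sham-F, where its median was 3106 normalized counts in the LV and 294 in the RV, and *Ankrd23* (-2.09), *Penk* (-3.04), *Nebl* (2.33) and *Ppargc1a* (1.59) had the same sign in both groups. The atrial marker list, which includes *Nppa*, took a median of 0.147% of the counts in the LV and 0.0176% in the RV of AOB-F. In Sham-F the medians were 0.0231% and 0.00381%, lower in either ventricle, and a change within 1 ventricle was not tested here. Of the 28 tested genes of the load and fetal list, edgeR called 0 between AOB-F and Sham-F, against 6 at an unadjusted p under 0.05 and 1 called by DESeq2. By edgeR the difference was 0.69 (adjusted p = 0.56) for *Nppa*, and for the matrix gene *Tnc* the difference was -1.80 (adjusted p = 0.206).

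The mirrored model was compared next. Against PAB-F, in which the load lies on the RV, 913 genes (7.64%) differed in their RV minus LV difference, 368 (3.08%) with the higher value in AOB-F and 545 (4.56%) with the lower. Without the pairs of replicates 1 and 6 the number was 362, and without the animal as a block 265. Of the 28 load and fetal genes, 17 differed, 14 with the lower and 3 with the higher value in AOB-F, and 15 did without pairs 1 and 6. Some of these genes were picked by the study for their change under banding in these libraries, so this count is not independent of that choice. The log2 fold change of *Nppa* was -3.20 in AOB-F, -3.89 in Sham-F and -0.19 in PAB-F, and it differed between AOB-F and PAB-F by -3.02 (SE 0.65, adjusted p = 0.00322), a call that was lost when only these conditions entered the fit (adjusted p = 0.0886). *Tnc* was at -2.95 in AOB-F, -1.15 in Sham-F and 0.73 in PAB-F and differed by -3.68 (SE 0.52, adjusted p = 2.57e-05). *Hs3st2* (-4.77, SE 0.87, adjusted p = 0.00068), *Tgfa* (-3.12, SE 0.48, adjusted p = 7.84e-05) and the matricellular *Thbs4* (-2.93, SE 0.71, adjusted p = 0.00812) had the largest negative differences beside these, and all 3 were above 0 in PAB-F. *Tgfb2* turned from -1.12 in AOB-F to 1.43 in PAB-F, and *Ctgf* from -0.94 to 0.82. In the other direction, *Pcdh11x* (2.85, SE 0.47, adjusted p = 0.000215), *Myo3b* (2.30, SE 0.40, adjusted p = 0.000348), *Angpt1* (2.23, SE 0.36, adjusted p = 0.000149), the olfactory receptor *Olr1085* (2.18, SE 0.53, adjusted p = 0.00876) and *Tas2r120* (2.08, SE 0.51, adjusted p = 0.00945) were relatively higher in the RV of AOB-F. The call of *Olr1085* was lost without the block (adjusted p = 0.134) and that of *Tas2r120* with only the conditions compared (0.0553). The log2 fold change of *Angpt1* was 3.44 in AOB-F, 2.90 in Sham-F and 1.21 in PAB-F. *Myh6* was relatively higher in the RV of AOB-F than of PAB-F by 1.08 (SE 0.21, adjusted p = 0.00127), as was *Fhl2* by 0.88 (SE 0.16, adjusted p = 0.00058). On the list of oxidative phosphorylation 14 of 74 genes and on that of fatty acid oxidation 8 of 36 differed, all higher in AOB-F, and 3 and 5 did without pairs 1 and 6. Over all genes the share without these pairs was 3.02%, and that of oxidative phosphorylation was then near it. Of the 29 chamber transcription factors 2 differed, a share near the 7.64% over all genes, and 1 did without pairs 1 and 6 and 0 without the block (5 at an unadjusted p under 0.05). They were *Irx3* (0.99, SE 0.28, adjusted p = 0.0199) and *Gata5* (0.69, SE 0.19, adjusted p = 0.0169), and *Irx1* and *Irx2* did not (adjusted p = 0.461 and 0.552). The median ratio of RV to LV marker shares was also unequal between the models, at -1.43 in AOB-F and -0.36 in PAB-F on the log2 scale for fibroblasts and -1.76 and -1.31 for endothelial cells, and its part in the differences was not tested. The age at harvest and the time after surgery also differ between the models and cannot be told apart from them.

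**Figure D4:**
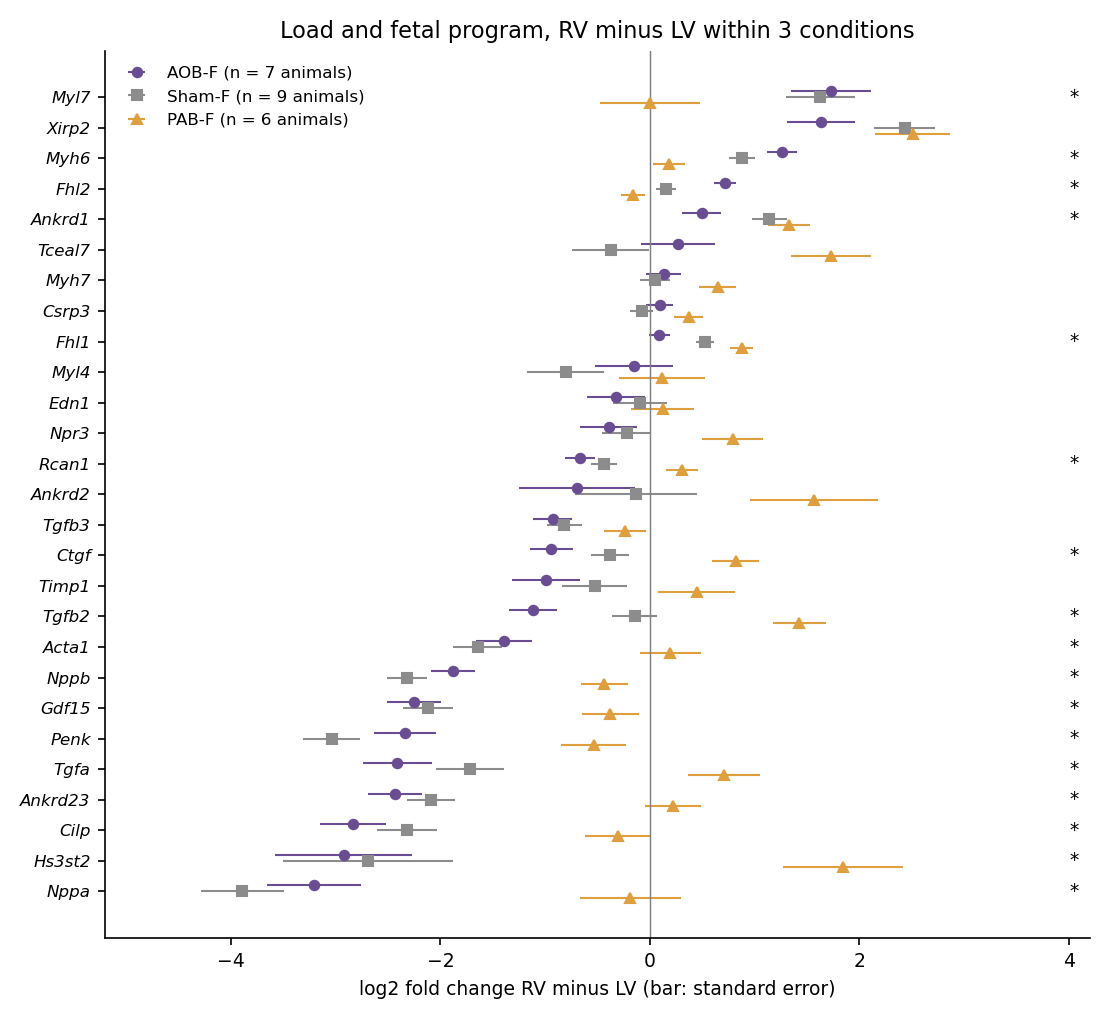
Log2 fold change RV minus LV, with its standard error, of tested genes of the load and fetal program, with 1 left out, in AOB-F (circles), Sham-F (squares) and PAB-F (triangles). Asterisks mark the 17 genes whose difference between AOB-F and PAB-F had an adjusted p under 0.05. The list includes genes that the study picked for their change under banding in these libraries. For *Nppa* the triangle lies at -0.19 and the circle at -3.20, and for *Tgfb2* at 1.43 and -1.12.

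The younger animals of the compensated stage had a smaller chamber difference. In AOB-H, RV minus LV had an adjusted p under 0.05 for 1644 genes (13.8%), against 8435 in AOB-F, and the median absolute log2 fold change over all genes was 0.20 in AOB-H, 0.61 in AOB-F, 0.72 in Sham-F and 0.57 in PAB-F. In Sham-H, unbanded and also 11 weeks old, 3885 genes (32.5%) were called and the median was 0.27. Tested directly, 5680 genes (47.5%) differed between AOB-F and AOB-H, 2824 with the higher and 2856 with the lower value in AOB-F, and 5358 did without pairs 1 and 6. On the splicing list 20 of 29 genes were higher and 2 lower in AOB-F, and on the matrix list 20 of 30 were lower, against 19, 2 and 17 without pairs 1 and 6. *Ppargc1a* differed by 1.41 (SE 0.25, adjusted p = 0.000281) and *Dusp1* by -1.07 (SE 0.20, adjusted p = 0.000307), whereas *Nppa* (-0.27, SE 0.62, adjusted p = 0.747) and *Irx2* (-0.17, SE 0.57, adjusted p = 0.824) did not pass. The test of AOB-F against AOB-H holds age and stage of disease together, and AOB-H was not tested against Sham-H. Marker shares moved as well, with a median log2 ratio of RV to LV for the endothelial list of -1.76 in AOB-F and -0.90 in AOB-H, and their part was not tested.

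Within AOB-F, the RV minus LV difference was compared between the 4 males and the 3 females. It differed for 514 genes (4.3%), 258 with the higher value in males. The count was not stable to single animals, with 1 gene without replicate 7, 6 without replicate 2, 54 without replicate 4, 72 without replicate 6 and 855 without replicate 3, and with pairs 1 and 6 left out it was 0, against 2516 genes at an unadjusted p under 0.05.

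Finally, each library was placed between LV and RV by the genes that separate the ventricles in Sham-F (1732 higher and 1215 lower in the RV, with an adjusted p under 0.05, more than 2-fold, with a mean over 50 normalized counts in either ventricle and without overlap there), as the mean log2 CPM of the former minus that of the latter, with 0% at the mean of LV Sham-F and 100% at that of RV Sham-F. The RV libraries of AOB-F lay at 86.6% to 100.1% (median 95.5%), close to the RV of Sham-F, and replicates 1 and 6 lay at 92.0% and 98.4%. This position was not particular to AOB-F, since the RV of AOB-H had a median of 95.1% and that of Sham-H 95.7%. The RV of PAB-F lay at 62.8% to 85.7%. The LV libraries of AOB-F lay at -18.1% to 36.4% (median 14.8%), with replicates 5 and 7 highest at 36.4% and 28.8% and replicate 4 lowest. The LV of Sham-F lay at -13.6% to 12.9%, a range that the choice of genes narrows, since genes whose Sham-F libraries overlapped were left out. The same choice favours a wide distance between the ventricles in Sham-F itself. The LV of AOB-H lay at 37% to 80.1% (median 74.9%), and that of the unbanded Sham-H of the same age at -8.59% to 85.1% (median 65.6%). The RV and LV of AOB-F did not overlap.

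**Figure D5:**
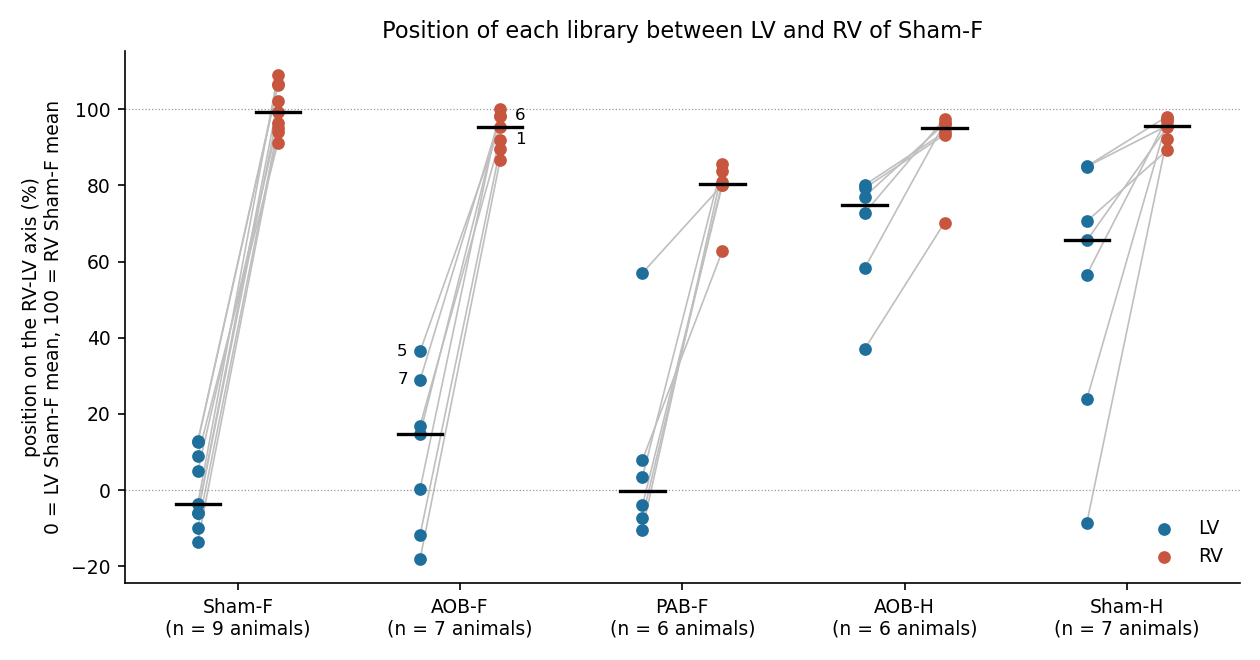
Position of each library (%) between the mean LV (0) and the mean RV (100) of Sham-F, with a line per animal and black bars for medians, and with replicate numbers for AOB-F libraries named in the text. RV of AOB-F sits at 86.6% to 100.1%, LV of AOB-F at -18.1% to 36.4%, LV of AOB-H at 37% to 80.1% and LV of Sham-H at -8.59% to 85.1%. RV of PAB-F sits at 62.8% to 85.7%.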

How the data were processed

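RNA sequencing of rat cardiomyocytes gave 82 libraries of 41 animals, of which the 14 AOB-F libraries are the subject and the other libraries share the estimate of the spread. Per the study's methods, the authors trimmed reads with Trim Galore, aligned them with STAR to Rnor6.0 and counted them per gene with featureCounts, in an nf-core pipeline, and tested with DESeq2 (1.28.1). The deposited values used here are raw read counts per gene, not normalized. The table also holds normalized counts, a signal the authors made with DESeq2 by dividing counts by a size factor per library, and FPKM values made by the authors, and neither entered a test. The table holds 17337 genes, 1773 of them with no count, and 6675287 to 19665439 counts per library, and its number of reads limits the precision of low genes. No 2 libraries agreed within sampling noise (the smallest chi-square per gene was 4.04).

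Counts were normalized with the trimmed mean of M values (TMM), filtered with filterByExpr of edgeR (4.0.16, R 4.3.3), which left 11954 genes, and fitted with the quasi-likelihood test on all libraries, with the animal as a block and a term RV minus LV for each condition. p values were adjusted by Benjamini-Hochberg over all genes tested, with a threshold of 0.05. Normalized counts are raw counts divided by the TMM library size and multiplied by the mean library size, and log CPM used a prior count of 2. The labels give 1 animal number to both ventricles, and deviations from the group means correlated within an animal at 0.0817 to 0.592 (median 0.297) and between animals at -0.438 to 0.490 (median -0.0411). For 4 of 7 RV libraries the LV library of the same animal had the highest correlation, and replicates 6 and 7 went together (0.468 and 0.490 across these animals). Named genes were the 12 of each direction with the largest log2 fold change among those with an adjusted p under 0.05, a mean over 50 normalized counts in either ventricle and 1 sign in 7 of 7 animals, up to 5 of each direction with the largest difference from Sham-F or PAB-F, the 4 of smallest p in each list, and any member of the transcription factor and load lists. *Eif2s3y*, *Ddx3*, *Eif2s3x*, *Myl3*, *Esrra*, *Ucp2*, *Acads*, *Nr4a3*, *Col11a2* and *Col4a3* were named after their values were seen. Some members of the lists are counted but not reported by name here. The members and lists were chosen with earlier results of these data known. Tests were checked on simulated counts, in which 180 of 200 genes with a 2-fold difference between RV and LV of AOB-F were recovered, with 9 others called. The simulation gave every gene the same spread, which real genes do not have. Alternatives were other normalization, no filter, no block, only the conditions compared, DESeq2 (1.42.0), a correction for gene length, and leaving out each animal or animals 1 and 6. Sequences came from RefSeq (GRCr8).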

Additional observations from a re-analysis of the deposited data

Results flagged for a closer look

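In 15 of 228 groups of 7 libraries the highest or lowest library stood apart from the others by the test of Dixon at the 95% level, and chance flags about 1 in 20 groups. The LV library of replicate 5 accounts for 6 of them. It had the highest share of counts for the tricarboxylic acid cycle (1.99%), the lowest for mural markers (0.0606%), and the highest normalized counts of *Tas2r120* (29.1), *Dcdc5* (244), *Fhl2* (23887) and *Myl7* (138). In the LV, replicate 1 had the highest share of lymphocyte markers (0.000227%) and the highest *Ankrd1* (59210 normalized counts), replicate 2 the highest *Thbs4* (140.3) and *Edn1* (152), and replicate 3 the highest share of red blood cell markers (0.00617%). In the RV, replicate 3 had the highest share of red blood cell markers (0.000857%), replicate 7 that of conduction markers (0.0259%), replicate 4 the highest *Tbx1* (9.10) and replicate 2 the lowest *Gata4* (2199).

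The RV minus LV difference was not the same in all conditions for some named genes, tested as a difference of log2 fold changes. Against Sham-F this was *Crym* (0.80). Against PAB-F it was *Hs3st2* (-4.77), *Tnc* (-3.68), *Tgfa* (-3.12), *Nppa* (-3.02), *Thbs4* (-2.93), *Pcdh11x* (2.85), *Myo3b* (2.30), *Angpt1* (2.23), *Olr1085* (2.18) and *Tas2r120* (2.08). Between males and females of AOB-F, 514 genes differed, a count that rested on single animals.

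The Y-linked *Eif2s3y*, for which no test result is given here, had 321 counts in the RV library of replicate 6, labelled female, against at most 1 count in the other 39 female libraries. Y-linked genes were not removed before the tests.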

How the results depend on the processing

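The number of genes that differed between RV and LV of AOB-F was 7723 to 8573 over the alternatives, and by the criteria of the study 2480 to 3146. The number against AOB-H was 4608 to 5949, and the distance of RV from LV between the ventricles of Sham-F was 79.7% to 80.4%, against 80.7% as reported. Of the 181 named genes, 158 to 164 were called. The other comparisons moved, and the cause was not tested. Against Sham-F, 1 gene was called, and 0 without the replicate block, 0 with only the conditions compared, 35 with DESeq2, 0 without pairs 1 and 6 (860 at an unadjusted p under 0.05), and 0 to 3 without 1 replicate (0 without replicates 2 or 6, 2 without 4, 3 without 5). Against PAB-F, 913 genes were called, and 265 without the replicate block, 445 with only the conditions compared and 362 without pairs 1 and 6. The share with the higher value in AOB-F was 40.3%, against 24.9% without the block and 53.6% without the filter on low counts. Between males and females, 514 genes were called, and 22 without the replicate block, 1045 with only the conditions compared, 288 without the filter, 897 with DESeq2, 0 without pairs 1 and 6 and 1 to 855 without 1 replicate. The share with the higher value in males was 50.2%, against 81.8% without the block and 60.8% without the filter. Values that changed sign were *Myl4* (0.031 without the replicate block), *Myh7* (-0.041 with the length correction, -0.034 to 0.32 without 1 replicate, lowest without replicate 7) and *Sln* (-0.41 to 0.054 without 1 replicate, highest without replicate 3), and 0 of these was called as reported. Of the gene values for RV minus LV over the alternatives, 2482 kept their side of the threshold, 36 lost and 6 gained it. Depth limits genes of few counts, such as *Tbx1*, and whether it bears on the lost calls was not tested.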
